A study of Mus musculus with 48 samples.

Results

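Glycolysis and the response to low oxygen were followed here as a set of 34 genes in sorted lymph node stromal cells of mice with transplanted Eμ-Myc lymphoma, a B cell lymphoma driven by Myc under the immunoglobulin heavy chain enhancer, and of tumor-naive mice. The members were given as a list of symbols: 15 glycolytic enzymes, 3 glucose and lactate transporters, 3 glycolytic regulators, 5 genes of oxygen sensing and 8 other hypoxia response genes. A probe named for the gene was on the array for 31 of the 34, and none for Hk2, Gpi1 and Eno1. The probes of Bnip3 and Slc16a1 did not exceed the background level in any group, so 29 members were tested among 13288 genes.

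The arrays held RNA of 4 fractions sorted from pooled skin-draining lymph nodes: fibroblastic reticular cells (FRCs, CD31- gp38+), blood endothelial cells (BECs, CD31+ gp38-), lymphatic endothelial cells (LECs, CD31+ gp38+) and double-negative cells (DNs, CD31- gp38-). Each fraction was taken from tumor mice, wild-type mice given 200000 to 400000 Eμ-Myc cells intravenously and used when 4 to 10% of lymph node lymphocytes were tumor cells, and from naive wild-type mice given none. Every group had 3 replicates, each a pool of 80 ng RNA from 4 to 6 sorts, and each replicate was read on 2 strips of an Illumina bead array, which gave 24 replicates and 48 strips. The study credits these arrays to an earlier publication by Gloger et al. Its methods give C57BL/6N mice of both sexes, aged 8 to 12 weeks, for its own experiments. Whether this holds for the mice of the arrays was not stated there. Whether pools of one group shared animals was not given in the sources used here, so p-values measure the spread between these pools.

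Glycolysis splits glucose into pyruvate in the cytosol, and lactate dehydrogenase turns pyruvate into lactate when it is not burned in mitochondria. Cells that are short of oxygen stabilise the transcription factors HIF-1α (Hif1a) and HIF-2α (Epas1), which the prolyl hydroxylases (Egln genes) and the ubiquitin ligase subunit Vhl otherwise mark for degradation. The HIFs bind core motifs such as ACGTG and raise most glycolytic enzymes, the glucose transporter Slc2a1 and genes of angiogenesis, cell survival and matrix. Dividing cells and Myc also raise glycolytic enzymes without a lack of oxygen. The HIF proteins are governed mainly by degradation, which RNA levels do not show.

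Signals are given as log2 units after quantile normalization, and a difference of 1 is a doubling of signal. The background level was 5.58 log2 units. Strips of 1 replicate correlated at 0.9811 to 0.9935 over all probes with a value on every strip, dim ones included. Between 863780 and 1044181 beads were read per strip, with 18 to 22 beads for the median probe. Several facts of the whole series touch the members. All cell types lay on separate slides, and naive and tumor pools occupied different places on each slide, so place and tumor cannot be told apart. Of the sort markers, Pecam1 (CD31) averaged 14.37 and 13.69 in tumor BECs and LECs and 7.35 in tumor FRCs, against 14.60, 13.62 and 7.31 in the naive fractions. Pdpn (gp38) averaged 14.75 and 14.12 in tumor FRCs and LECs, against 14.41 and 14.20 in the naive fractions, and was lower but far above background in the gp38- fractions, at 9.94 in tumor BECs, against 8.81 in naive BECs, and 11.29 in tumor DNs, against 11.25 in naive DNs. In tumor DNs Pecam1 averaged 10.76, against 7.50 in naive DNs, and 9 of 15 blood endothelial markers were higher there (median difference 1.98). B cell markers were higher in tumor DNs for 8 of 11 genes (median 3.37, mean level of the list 7.75 to 10.69 in tumor replicates, against 6.15 to 6.62 in naive replicates) and for 2 of 11 in tumor BECs (median 1.91, 7.03 to 10.00 against 6.52 to 7.12). None of the 11 passed the test in FRCs (median 0.51, 6.69 to 7.43 against 6.12 to 6.29) or in LECs (median 0.46, 6.57 to 7.69 against 6.39 to 6.58). The probe of Ptprc, the CD45 gene, was not above background in any group, but other pan-leukocyte markers were higher for 8 of 12 genes in tumor DNs (median 3.46, 8.88 to 11.90 against 7.65 to 7.93) and 1 of 12 in tumor BECs (median 1.41, 8.59 to 11.20 against 8.45 to 8.71), with none called in FRCs (median 0.79, 7.17 to 8.43 against 6.38 to 6.88) or LECs (median 0.58, 8.21 to 9.07 against 7.86 to 8.19). In tumor FRCs, 2 of 13 myeloid markers were higher (Cd14 and Csf1r, list median 0.94, 7.00 to 7.56 against 6.37 to 6.56), as were 3 of 12 pericyte markers (Mcam, Des and Tagln, list median 0.86, 10.33 to 10.52 against 9.25 to 9.87). In tumor DNs 2 of 13 myeloid markers (median 1.37, 7.61 to 10.44 against 7.23 to 8.63) and 2 of 7 T cell markers (median 1.59, 6.91 to 9.85 against 6.69 to 7.86) were higher. Cell cycle genes were higher in tumor for 18 of 18 genes in FRCs, 16 in BECs, 10 in LECs and 16 in DNs, with medians of 2.97, 2.60, 2.01 and 2.78. The part of these shifts in the members' differences was not tested, and in sorted bulk RNA a change in the mix of cells and a change of RNA per cell cannot be told apart.

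Among the members, 7 of 12 glycolytic enzymes tested were higher in tumor than in naive stroma on average over cell types and 1, Pfkm, was lower, and 1 of the other 17 members was higher and 3 lower (12.5% of all genes were called higher and 10.8% lower). Within single cell types the enzymes were called in FRCs and BECs. In FRCs, Pgk1, Pgam1, Gapdh and Pfkl passed the test upward and Bnip3l downward, that is 4 and 1 of 29 members, where 6.32% of all genes were called higher and 4.07% lower (limma, Benjamini-Hochberg adjusted p below 0.05 over all genes). In BECs, Pgk1 and Pgam1 were higher and no member was lower (3.55% and 1.47% of all genes). In LECs and DNs no member passed, although 5 and 6 members had an unadjusted limma p below 0.05, and the methods' t-test called none after adjustment and 6 and 2 without. Among all genes 0.768% were called higher and 0.135% lower in LECs, and 4.72% and 2.56% in DNs. The median difference over the 29 members was 0.29 in FRCs, 0.05 in BECs, 0.09 in LECs and -0.21 in DNs, against -0.02, -0.04, -0.00 and -0.07 over all genes.

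Averaged over the 4 cell types, which uses all 24 replicates, 8 members were higher in tumor and 4 lower, 27.6% and 13.8% of the 29, set against those shares of all genes. The 8 were the enzymes Pfkl, Aldoa, Tpi1, Gapdh, Pgk1, Pgam1 and Ldha and the hypoxia response gene Ankrd37. The 4 were Pfkm, Pfkfb4, Egln1 and Bnip3l. The share of lower members was thus near that of all genes, and the share of higher members was above it. The members were brighter than all genes, with replicate medians of 9.18 to 10.81 against 8.39 to 8.67, and these shares were not matched for signal. With a stricter filter on dim probes, 1627 of 10779 genes were called higher on average and 1433 lower. Without the DN fraction, whose B cell and endothelial markers had shifted, 9 members were called, 7 higher and 2 lower, and all 9 were among the 12. Without the FRC fraction, 6 were called: Gapdh, Pgk1, Pgam1 and Ldha higher and Egln1 lower, as in the average over 4, and Epas1 lower, which was not called there. The counts over all 13288 genes also fell. They were 1663 higher and 1433 lower in the average over 4, 1239 and 862 without DNs, and 1211 and 822 without FRCs.

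**Figure D1:**
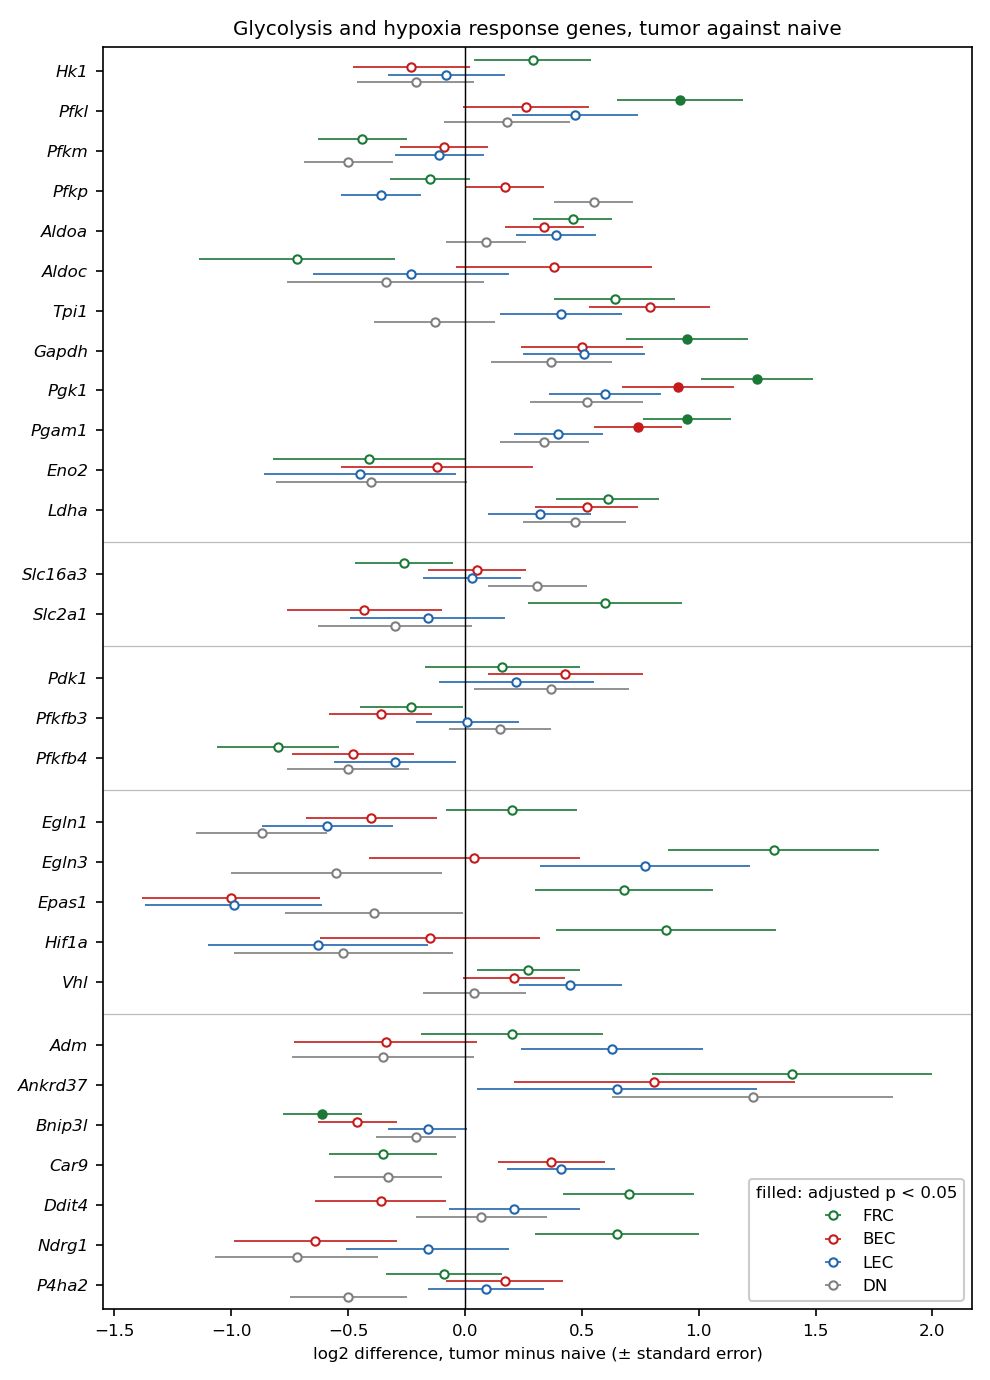
Log2 difference in signal, tumor minus naive, with standard error for the 29 members tested, grouped by role, in FRCs, BECs, LECs and DNs (filled points, adjusted p below 0.05; n = 3 replicates a group). Pgk1 lies right of 0 in all 4 cell types (1.25, 0.91, 0.60 and 0.52) and Pfkfb4 left of 0 in all 4, while Epas1 and Ndrg1 lie right of 0 in FRCs alone.

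Hexokinase traps glucose in the cell, and phosphofructokinase commits it to glycolysis. Hk1, the hexokinase with a probe, was at 7.36, 7.22 and 7.15 in tumor FRCs, against 6.83, 7.08 and 6.95 in naive FRCs, and differed by -0.23 to 0.29 over the 4 cell types, with no call. Of the 3 phosphofructokinase subunit genes, Pfkl was called higher and Pfkm lower on average, and Pfkp was not called. Pfkl, the liver-type subunit, had 12.31, 12.36 and 11.46 in tumor FRCs, against 10.97, 11.06 and 11.32 in naive FRCs. All tumor values were above all naive values, and the difference was 0.92 ± 0.27 (SE, adjusted p = 0.035), a 1.90-fold rise. Pfkl had 12.36, 12.27 and 12.05 in tumor BECs, against 12.13, 11.56 and 12.20 in naive BECs, 11.86, 12.48 and 11.95 in tumor LECs, against 11.65, 11.66 and 11.57 in naive LECs, and 11.94, 12.40 and 12.05 in tumor DNs, against 12.55, 11.92 and 11.37 in naive DNs. The groups overlapped in BECs and DNs and were apart in LECs, where the difference was 0.47 ± 0.27 (SE, adjusted p = 0.71). A second, dim probe of Pfkl differed by 0.19, -0.27, -0.23 and 0.46 in FRCs, BECs, LECs and DNs, opposite in sign to the brighter probe in BECs and LECs. Averaged over cell types, Pfkl rose by 0.46 ± 0.14 (SE, adjusted p = 0.02), a call that was lost with the mean of its probes (0.25, adjusted p = 0.10), as was the FRC call (0.56, adjusted p = 0.10).

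Pfkm, the muscle-type subunit, fell on average over cell types. It had 11.33, 11.08 and 11.41 in tumor FRCs, against 11.89, 11.70 and 11.54 in naive FRCs, and 11.50, 12 and 12.02 in tumor DNs, against 12.61, 12.05 and 12.37 in naive DNs. Tumor values lay below naive values in both fractions, with differences of -0.44 ± 0.19 (SE, adjusted p = 0.14) and -0.50 ± 0.19 (SE, adjusted p = 0.11). Pfkm was at 11.10, 11.20 and 11.55 in tumor BECs, against 11.55, 11.25 and 11.30 in naive BECs, and at 12.09, 11.71 and 11.79 in tumor LECs, against 11.80, 12.14 and 11.98 in naive LECs, with overlap in both. The average difference was -0.28 ± 0.09 (SE, adjusted p = 0.033), and the other probes of Pfkm were also lower in all 4 cell types. This call was close to the threshold and was lost in 10 of the 24 averages that each left out 1 replicate (FRC naive 1 and tumor 2, BEC naive 1, tumor 1 and tumor 2, DN naive 1 and tumor 1, LEC naive 2, tumor 2 and tumor 3), with differences of -0.32 to -0.24 over the 24 and adjusted p of 0.0539 to 0.065 where lost. Pfkp, the platelet-type subunit, had 10.96, 10.92 and 10.95 in tumor DNs, against 10.32, 10.65 and 10.20 in naive DNs. These groups were apart and the difference of 0.55 ± 0.17 (SE, adjusted p = 0.0502) missed the threshold narrowly. In LECs Pfkp had the opposite sign (-0.36 ± 0.17, SE, adjusted p = 0.55).

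Aldolase cleaves the hexose into triose phosphates and Tpi1 interconverts them. Aldoa, the main aldolase, had 12.48, 12.42 and 12.10 in tumor FRCs, against 11.74, 11.92 and 11.97 in naive FRCs. The BEC values were 12.95, 12.85 and 12.68 in tumor BECs, against 12.45, 12.58 and 12.45 in naive BECs. The groups were apart in both, with differences of 0.46 ± 0.17 (SE, adjusted p = 0.089) and 0.34 ± 0.17 (SE, adjusted p = 0.28). In LECs Aldoa had 12.25, 12.74 and 12.54 in tumor LECs, against 12.30, 11.95 and 12.11 in naive LECs, and in DNs 12.53, 12.80 and 12.87 in tumor DNs, against 12.91, 12.32 and 12.69 in naive DNs, and the groups overlapped. The average rose by 0.32 ± 0.08 (SE, adjusted p = 0.01). The brain-type aldolase gene Aldoc differed by -0.72 to 0.38 and passed in no cell type.

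Tpi1 had 14.07, 14.13 and 13.62 in tumor FRCs, against 13.29, 13.34 and 13.28 in naive FRCs. Its levels were 14.06, 14.25 and 13.46 in tumor BECs, against 13.31, 12.94 and 13.15 in naive BECs, and 13.69, 14.20 and 13.46 in tumor LECs, against 13.39, 13.43 and 13.30 in naive LECs. All tumor values exceeded all naive values in these 3 fractions, with differences of 0.64 ± 0.26 (SE, adjusted p = 0.13), 0.79 ± 0.26 (SE, adjusted p = 0.091) and 0.41 ± 0.26 (SE, adjusted p = 0.77). In DNs Tpi1 had 14.53, 14.51 and 13.38 in tumor DNs, against 14.45, 14.21 and 14.14 in naive DNs, where tumor replicate 3 was far below the other tumor replicates. The DN difference of -0.13 turned to 0.25 without that replicate. Averaged over cell types Tpi1 rose by 0.43 ± 0.13 (SE, adjusted p = 0.024). This call was lost with the second strip alone (0.31, adjusted p = 0.29). A second bright probe differed by 0.68, 0.77, 0.26 and 0.13 in FRCs, BECs, LECs and DNs, and the remaining, dimmer probe by 0.70, 0.77, -0.48 and 1.73, with the opposite sign in LECs.

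Gapdh oxidises glyceraldehyde 3-phosphate and is often used as a loading control. It had 13.57, 13.80 and 13.23 in tumor FRCs, against 12.31, 12.57 and 12.88 in naive FRCs. In BECs Gapdh had 14.10, 14.33 and 13.77 in tumor BECs, against 13.63, 13.64 and 13.42 in naive BECs, and in LECs 13.49, 14.22 and 13.62 in tumor LECs, against 13.27, 13.26 and 13.30 in naive LECs. Tumor and naive values did not overlap in any of the 3. In DNs it had 14.09, 13.90 and 12.97 in tumor DNs, against 13.47, 13.40 and 12.99 in naive DNs, with overlap. The FRC difference was 0.95 ± 0.26 (SE, adjusted p = 0.024), a 1.93-fold rise, and the others were 0.50, 0.51 and 0.37 in BECs, LECs and DNs, with no call. On average Gapdh rose by 0.58 ± 0.13 (SE, adjusted p = 0.0031).

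Pgk1, phosphoglycerate kinase, makes the first ATP of the pathway. Of the 12 member enzymes tested, it showed the largest rise in FRCs, BECs and LECs and on average, though not in DNs. It had 12.09, 12.33 and 11.45 in tumor FRCs, against 10.56, 10.66 and 10.89 in naive FRCs. In BECs it had 12.84, 12.45 and 12.07 in tumor BECs, against 11.63, 11.38 and 11.62 in naive BECs. Tumor and naive values did not overlap in either fraction. The differences were 1.25 ± 0.24 (SE, adjusted p = 0.0027) in FRCs, a 2.38-fold rise, and 0.91 ± 0.24 (SE, adjusted p = 0.032) in BECs, a 1.88-fold rise. In LECs Pgk1 had 11.50, 12.25 and 11.68 in tumor LECs, against 11.07, 11.16 and 11.40 in naive LECs, and in DNs 12.20, 11.53 and 11.77 in tumor DNs, against 11.22, 11.47 and 11.24 in naive DNs. It was the only member with every tumor replicate above every naive replicate in all 4 cell types. A dim second probe of Pgk1 differed by 0.46, 0.35, 0.21 and -0.11 in FRCs, BECs, LECs and DNs. With the mean of its kept probes the BEC call was lost (0.63, adjusted p = 0.062) and the FRC call was kept. The average of the brighter probe rose by 0.82 ± 0.12 (SE, adjusted p = 8.2e-05).

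Pgam1, phosphoglycerate mutase, moves the phosphate group in the next step. It had 10.48, 10.60 and 10.24 in tumor FRCs, against 9.33, 9.48 and 9.65 in naive FRCs. The BEC arrays gave 10.42, 10.32 and 10.04 in tumor BECs, against 9.49, 9.34 and 9.74 in naive BECs. Both were apart, with differences of 0.95 ± 0.19 (SE, adjusted p = 0.003), a 1.94-fold rise, and 0.74 ± 0.19 (SE, adjusted p = 0.026), a 1.67-fold rise. In LECs Pgam1 had 9.64, 9.97 and 9.47 in tumor LECs, against 9.41, 9.18 and 9.29 in naive LECs, and in DNs 10.14, 10.0 and 9.55 in tumor DNs, against 9.85, 9.46 and 9.35 in naive DNs. The LEC groups were apart and the DN groups overlapped. A dimmer second probe differed by 0.67, 0.68, 0.40 and -0.08 in FRCs, BECs, LECs and DNs, and the average of the brighter probe rose by 0.61 ± 0.09 (SE, adjusted p = 0.00013).

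Eno2, the neuron-type enolase, differed by -0.45 to -0.12, with no call. Ldha, the lactate dehydrogenase subunit that favours lactate, had 13.91, 13.86 and 13.84 in tumor FRCs, against 12.99, 13.32 and 13.48 in naive FRCs. Ldha also had 14.39, 14.42 and 14.08 in tumor BECs, against 13.74, 13.98 and 13.60 in naive BECs. In LECs Ldha had 13.49, 14.01 and 13.43 in tumor LECs, against 13.33, 13.43 and 13.22 in naive LECs, and in DNs 14.18, 13.83 and 13.21 in tumor DNs, against 13.25, 13.61 and 12.95 in naive DNs. Only the DN groups overlapped, through tumor replicate 3. The differences were 0.61 ± 0.22 (SE, adjusted p = 0.09), 0.52 ± 0.22 (SE, adjusted p = 0.19), 0.32 ± 0.22 (SE, adjusted p = 0.81) and 0.47 ± 0.22 (SE, adjusted p = 0.21). None passed alone, and the average of 0.48 ± 0.11 (SE, adjusted p = 0.0045) did.

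**Figure D2:**
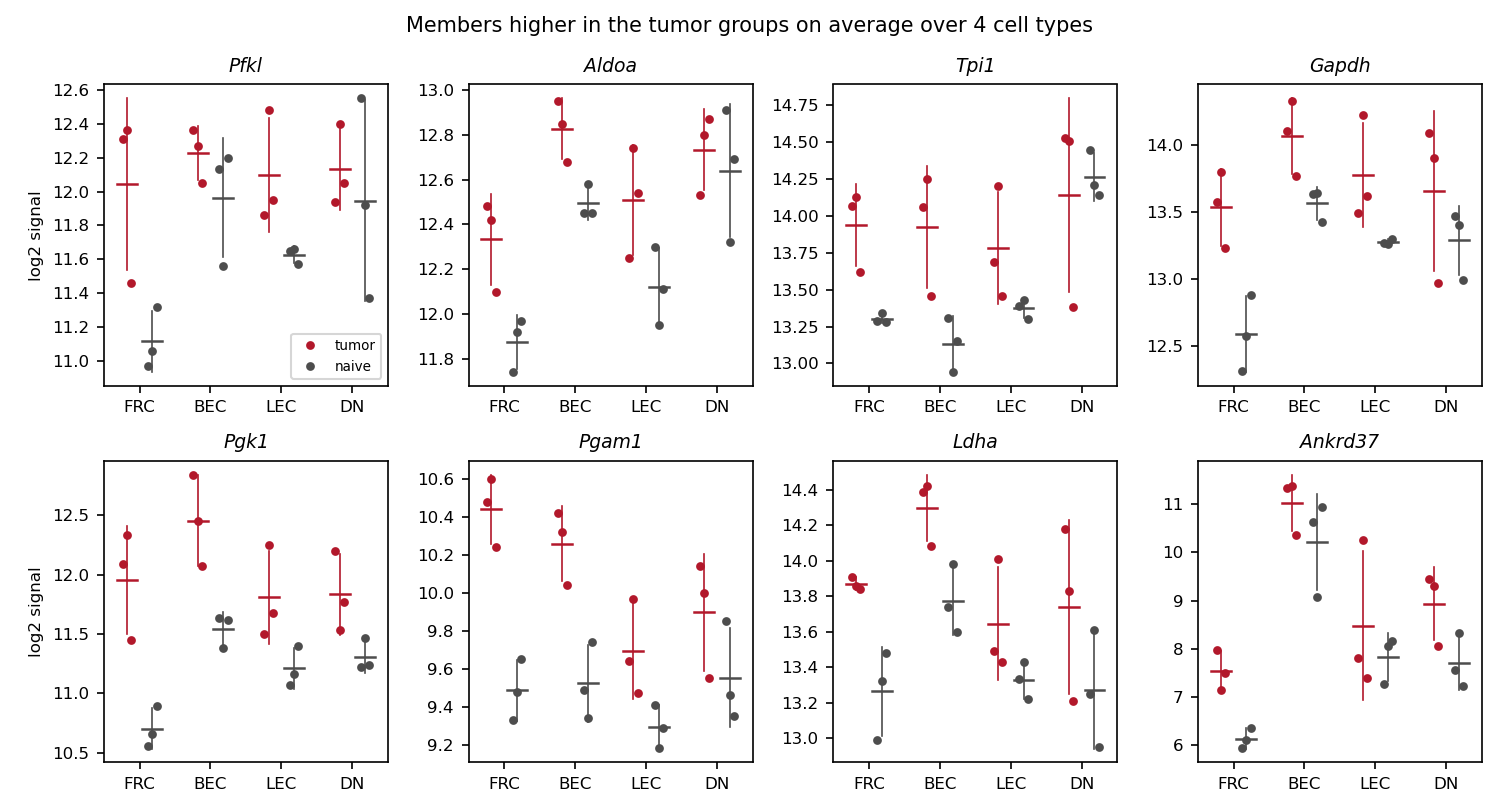
Log2 signal of the 8 members called higher on average, in tumor (red, left) and naive (grey, right) replicates of each cell type. Points are replicates, bars the mean and SD (n = 3), and each panel has its own vertical scale. Pgk1 tumor replicates lie above the naive replicates in every fraction, while DN tumor replicate 3 lies low for Tpi1 (13.38), Gapdh (12.97) and Ldha (13.21).

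The calls within single cell types rested on few replicates. Without FRC naive replicate 1, naive replicate 2, tumor replicate 1 or tumor replicate 2, the FRC count fell to 2, Pgk1 and Pgam1, with Gapdh, Pfkl and Bnip3l at adjusted p of 0.071 to 0.18. Without FRC naive replicate 3 it was 6 and without tumor replicate 3 it was 7. In BECs no member was left without naive replicate 1, naive replicate 2, tumor replicate 1 or tumor replicate 2 (Pgk1 and Pgam1 at adjusted p of 0.074 to 0.18), 1 without naive replicate 3 and 4 without tumor replicate 3. In DNs 3 members passed without naive replicate 2 (Pfkp higher, Pfkm and the dim Car9 lower) or without tumor replicate 3 (Gapdh and Ldha higher, P4ha2 lower). The direction of Pgk1, Pgam1, Gapdh and Ldha was the same in all 4 cell types under each alternative tried, and their average stayed below the threshold throughout.

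Groups without overlap were counted next. In FRCs 13 of 29 members (44.8%) had every tumor replicate above every naive replicate, against 19.4% of all genes, and 3 (10.3%) had every tumor replicate below, against 19.8%. In LECs 10 members (34.5%) lay above, against 11.2%, and 5 (17.2%) below, against 9.23%. In BECs 6 (20.7%) lay above, against 12.8%, and 4 (13.8%) below, against 13.1%. In DNs 2 lay above and 2 below (6.90% each), against 7.93% and 7.97%. Per replicate, the median of the 12 enzymes relative to their naive means was 0.62, 0.57 and 0.27 in tumor FRCs, 0.43, 0.50 and 0.26 in tumor BECs, 0.19, 0.65 and 0.10 in tumor LECs and 0.13, 0.23 and 0.05 in tumor DNs. Naive replicates lay between -0.13 and 0.09 in FRCs, -0.03 and -0.01 in BECs, -0.03 and 0.01 in LECs and -0.20 and 0.20 in DNs. The tumor medians were thus above the naive ones in every replicate of FRCs, BECs and LECs and mixed with them in DNs. Each naive replicate is part of the mean it was compared with, which narrows the naive range. The other 17 members had tumor medians of 0.16 to 0.50 in FRCs, -0.25 to -0.07 in BECs, -0.13 to 0.24 in LECs and -0.44 to 0.16 in DNs. Their naive medians were -0.10 to 0.04 in FRCs, -0.20 to 0.19 in BECs, -0.16 to 0.11 in LECs and -0.20 to 0.27 in DNs. The tumor and naive ranges of these members thus overlapped in BECs, LECs and DNs.

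Neither transporter tested was called. Slc2a1 (GLUT1), the basal glucose transporter and a classic HIF target, had 13.12, 13.09 and 12.98 in tumor FRCs, against 12.22, 12.23 and 12.95 in naive FRCs. Tumor FRCs lay above naive FRCs, although naive replicate 3 came within 0.03 of the lowest tumor replicate, and the difference was 0.60 ± 0.33 (SE, adjusted p = 0.27). In BECs Slc2a1 had 13.08, 12.97 and 12.75 in tumor BECs, against 13.67, 12.58 and 13.84 in naive BECs, in LECs 12.24, 12.93 and 11.88 in tumor LECs, against 12.23, 12.63 and 12.68 in naive LECs, and in DNs 12.27, 12.58 and 12.83 in tumor DNs, against 12.62, 13.53 and 12.41 in naive DNs. All 3 overlapped, with differences of -0.43, -0.16 and -0.30. The lactate exporter gene Slc16a3 lay at or near background, between 5.35 and 6.49 in all replicates.

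Of the regulators, Pfkfb4, which sets fructose 2,6-bisphosphate, the activator of phosphofructokinase, had 9.93, 10.15 and 10.32 in tumor FRCs, against 10.83, 10.91 and 11.07 in naive FRCs. The FRC groups were apart and the difference was -0.80 ± 0.26 (SE, adjusted p = 0.0520). Levels were 7.91, 8.70 and 8.17 in tumor BECs, against 8.62, 8.88 and 8.71 in naive BECs, 8.84, 8.76 and 8.42 in tumor LECs, against 8.75, 9.17 and 8.98 in naive LECs, and 9.08, 9.27 and 9.41 in tumor DNs, against 9.33, 10.55 and 9.37 in naive DNs. These overlapped, with differences of -0.48, -0.30 and -0.50, and the average fell by 0.52 ± 0.13 (SE, adjusted p = 0.0069). Pfkfb3, a second gene of this family, was dim (5.41 to 6.88) and Pdk1, the kinase that keeps pyruvate out of mitochondria, differed by 0.16 to 0.43. Neither passed in any cell type.

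The oxygen sensing genes showed no call within a cell type. Hif1a had 8.91, 9.24 and 8.34 in tumor FRCs, against 7.92, 7.77 and 8.23 in naive FRCs. The tumor FRCs lay above the naive FRCs without overlap, with a difference of 0.86 ± 0.47 (SE, adjusted p = 0.28). In BECs Hif1a had 9.15, 8.91 and 9.13 in tumor BECs, against 9.58, 8.67 and 9.40 in naive BECs, in LECs 8.59, 7.05 and 7.42 in tumor LECs, against 8.29, 8.02 and 8.64 in naive LECs, and in DNs 8.55, 7.10 and 9.07 in tumor DNs, against 7.91, 9.72 and 8.65 in naive DNs, with overlap in all 3. Epas1, the HIF most linked to endothelium, had 9.07, 9.21 and 8.48 in tumor FRCs, against 8.47, 7.98 and 8.27 in naive FRCs. It had 9.54, 9.32 and 10.06 in tumor BECs, against 10.51, 10.57 and 10.83 in naive BECs, and 7.03, 7.19 and 6.49 in tumor LECs, against 7.53, 8.04 and 8.11 in naive LECs. In both endothelial fractions the tumor replicates lay below the naive ones without overlap (-1.0 ± 0.38 (SE, adjusted p = 0.14) in BECs and -0.99 ± 0.38 (SE, adjusted p = 0.37) in LECs), whereas in FRCs they lay above (0.68 ± 0.38, SE, adjusted p = 0.28). DNs overlapped, with 7.54, 8.34 and 8.47 in tumor DNs, against 7.49, 9.56 and 8.49 in naive DNs. A second, dimmer Epas1 probe differed by 1.32, -0.50, 0.48 and -0.12 in FRCs, BECs, LECs and DNs, so it did not share the LEC direction.

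Egln1 (PHD2), the main HIF prolyl hydroxylase, was lower on average. It had 6.22, 5.86 and 6.28 in tumor DNs, against 6.75, 6.93 and 7.28 in naive DNs, and 7.26, 6.46 and 7.03 in tumor LECs, against 7.30, 7.75 and 7.45 in naive LECs. Both were apart, with differences of -0.87 ± 0.28 (SE, adjusted p = 0.067) and -0.59 ± 0.28 (SE, adjusted p = 0.57). In FRCs it had 7.15, 6.58 and 6.61 in tumor FRCs, against 6.48, 7.02 and 6.25 in naive FRCs, and in BECs 7.69, 6.80 and 7.96 in tumor BECs, against 7.77, 8.17 and 7.73 in naive BECs, with overlap. The average fell by 0.42 ± 0.14 (SE, adjusted p = 0.039), and it was not called without the DN fraction (-0.27, adjusted p = 0.30) and in 12 of the 24 averages that left out 1 replicate (FRC naive 1, naive 2, tumor 2 and tumor 3, BEC naive 2 and tumor 2, DN naive 3, tumor 1 and tumor 2, LEC naive 2, naive 3 and tumor 2), with adjusted p of 0.0506 to 0.077 there. Egln3 (PHD3), a hydroxylase that HIF itself induces, had 10.29, 10.32 and 9.0 in tumor FRCs, against 7.94, 8.30 and 9.42 in naive FRCs. The FRC difference was 1.32 ± 0.45 (SE, adjusted p = 0.067), with overlap through tumor replicate 3 and naive replicate 3. In LECs it had 9.06, 9.28 and 8.94 in tumor LECs, against 8.31, 8.13 and 8.53 in naive LECs, where the groups were apart (0.77 ± 0.45, SE, adjusted p = 0.71). A second, dimmer Egln3 probe differed by 0.19, 0.13, 0.60 and -0.85 in FRCs, BECs, LECs and DNs. Vhl differed by 0.04 to 0.45, with no call.

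**Figure D3:**
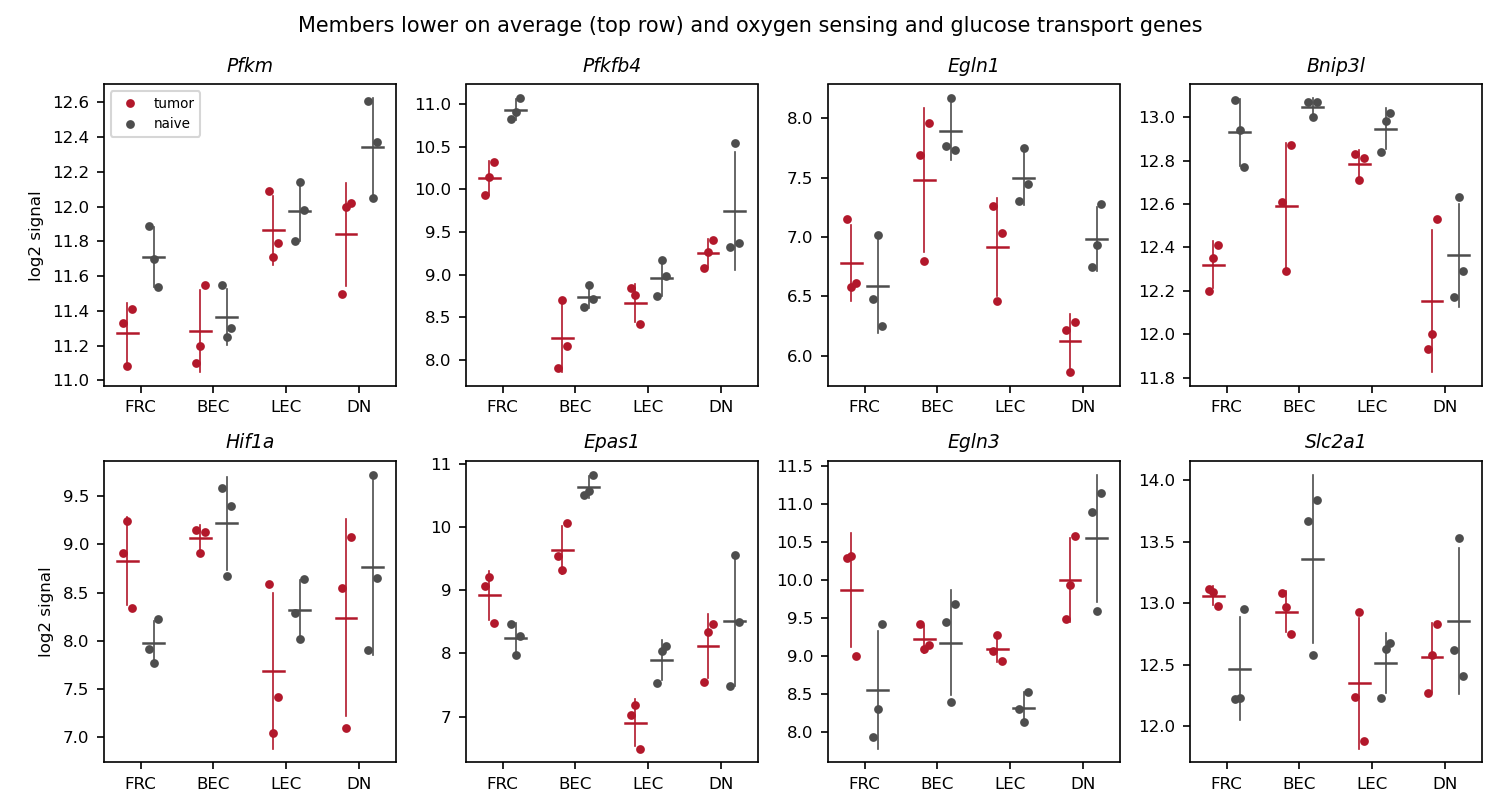
Log2 signal of the 4 members called lower on average (top row) and of Hif1a, Epas1, Egln3 and Slc2a1 (bottom row), in tumor (red, left) and naive (grey, right) replicates. Points are replicates, bars the mean and SD (n = 3), and each panel has its own vertical scale. Hif1a, Epas1 and Slc2a1 tumor replicates lie above naive replicates in FRCs, and Epas1 tumor replicates lie below in BECs and LECs.

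Among the other hypoxia response genes, Bnip3l (NIX), a mitophagy receptor, was lower. It had 12.20, 12.35 and 12.41 in tumor FRCs, against 13.08, 12.94 and 12.77 in naive FRCs. Bnip3l had 12.61, 12.29 and 12.87 in tumor BECs, against 13.07, 13.0 and 13.07 in naive BECs, and 12.83, 12.71 and 12.81 in tumor LECs, against 12.84, 12.98 and 13.02 in naive LECs. All tumor values were below all naive values in these 3 fractions, by -0.61 ± 0.17 (SE, adjusted p = 0.027), -0.46 ± 0.17 (SE, adjusted p = 0.13) and -0.16 ± 0.17 (SE, adjusted p = 0.95). DNs had 11.93, 12 and 12.53 in tumor DNs, against 12.17, 12.63 and 12.29 in naive DNs, with overlap, and the average fell by 0.36 ± 0.09 (SE, adjusted p = 0.0051). Ankrd37, an ankyrin repeat gene induced by HIF-1, was the only one of these genes that rose. It had 7.97, 7.14 and 7.49 in tumor FRCs, against 5.94, 6.12 and 6.36 in naive FRCs. The FRC groups were apart, with a difference of 1.40 ± 0.60 (SE, adjusted p = 0.15). In BECs it had 11.34, 11.38 and 10.35 in tumor BECs, against 10.63, 9.08 and 10.94 in naive BECs, and in DNs 9.45, 9.30 and 8.06 in tumor DNs, against 7.57, 8.33 and 7.23 in naive DNs, with differences of 0.81 and 1.23. In LECs it had 7.80, 10.25 and 7.39 in tumor LECs, against 7.26, 8.06 and 8.16 in naive LECs, where tumor replicate 2 stood alone and the difference of 0.65 became -0.23 without it. The average rose by 1.02 ± 0.30 (SE, adjusted p = 0.019), and it was not called without the DN fraction (0.95, adjusted p = 0.069) or the FRC fraction (0.90, adjusted p = 0.087).

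The rest passed in no cell type. Ndrg1, a stress gene long used as a hypoxia marker, had 12.67, 12.36 and 13.10 in tumor BECs, against 13.13, 13.37 and 13.54 in naive BECs. The tumor BECs lay below the naive BECs without overlap (-0.64 ± 0.35, SE, adjusted p = 0.33), and the FRC difference was 0.65 ± 0.35 (SE, adjusted p = 0.25). Ddit4 (REDD1), an inhibitor of mTORC1, differed by 0.70 in FRCs and -0.36 in BECs. Adm, the vasodilator peptide adrenomedullin, lay above naive without overlap in tumor LECs (10.53, 10.67 and 10.77 in tumor LECs, against 9.98, 9.69 and 10.40 in naive LECs), with a difference of 0.63 ± 0.39 (SE, adjusted p = 0.75). P4ha2, a collagen prolyl hydroxylase, differed by -0.50 to 0.17. Car9, a surface carbonic anhydrase and strict HIF-1 target, was not above background in any tumor FRC or tumor DN replicate and was measured throughout only in LECs (6.44, 6.65 and 6.62 in tumor LECs, against 6.42, 5.98 and 6.10 in naive LECs).

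No difference between cell types in the size of the change passed the test. Setting FRCs against BECs, 0 of 29 members were called (0.918% of all genes), 5 had an unadjusted limma p below 0.05, and the greatest was Epas1, which differed by 1.68 ± 0.54 (SE, adjusted p = 0.17). For FRCs against DNs it was also 0 (1.21% of all genes), with 6 at unadjusted p below 0.05, among them Egln3 (1.86 ± 0.63, adjusted p = 0.17). For LECs against BECs it was 0 (0.00753% of all genes, a single gene), with 1 at unadjusted p below 0.05. With array weights, whose estimation stopped before convergence, 8, 6 and 1 members were called in these 3 comparisons. The larger FRC changes of Pgk1 and Pgam1 were thus not shown to differ from those in BECs.

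Naive cell types differed in their levels of many members, as of many other genes. Of 29 members, 25 differed in at least 1 of the 6 pairs of naive fractions, a count not made for all genes. The counts were 19 for FRCs and BECs (40.8% of all genes, 65.5% of members), 10 for FRCs and LECs (33.5% and 34.5%), 15 for FRCs and DNs (38.4% and 51.7%), 7 for LECs and BECs (22.0% and 24.1%), 10 for LECs and DNs (44.8% and 34.5%) and 16 for BECs and DNs (51.9% and 55.2%). The share of members was near that of all genes for FRCs and LECs, LECs and BECs, and BECs and DNs. It was below that of all genes for LECs and DNs, and above it for FRCs and BECs and for FRCs and DNs. Members were most often highest in BECs (14 of 29) and most often lowest in FRCs (13 of 29). Neither count was made for all genes. Each cell type was on its own slide, so slide and cell type cannot be told apart in these comparisons. The FRC and LEC count fell to 6 without FRC naive replicate 1 or LEC naive replicate 2, and the FRC and DN count to 8 without DN naive replicate 1.

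Eno2 and Aldoc showed the widest range. Eno2 had 10.52, 10.64 and 10.70 in naive FRCs, 8.24, 10.65 and 8.54 in naive DNs, 7.38, 7.52 and 7.87 in naive LECs and 5.94, 6.32 and 6.05 in naive BECs. No FRC value overlapped a BEC or LEC value, and the FRC minus BEC difference was 4.51 ± 0.41 (SE, adjusted p = 3.3e-08). DN naive replicate 2 was near the FRC level. All 6 pairs passed. Aldoc had 10.93, 10.55 and 9.72 in naive DNs, 8.11, 8.16 and 8.15 in naive FRCs, 7.30, 6.58 and 6.08 in naive LECs and 5.71, 6.35 and 5.44 in naive BECs, where 1 replicate was below background. The BEC minus DN difference was -4.57 ± 0.42 (SE, adjusted p = 4.1e-08), and only the LEC and BEC pair was not called (adjusted p = 0.18).

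Fibroblastic cells were high in 2 further members. P4ha2 had 12.34, 12.37 and 12.21 in naive FRCs and averaged 10.91, 10.52 and 10.39 in DNs, BECs and LECs, whose values did not differ from each other beyond the threshold. Its FRC minus LEC difference was 1.91 ± 0.25 (SE, adjusted p = 3.9e-06). Pfkfb4 had 10.83, 10.91 and 11.07 in naive FRCs and averaged 9.75, 8.97 and 8.74 in DNs, LECs and BECs, with all pairs called but LECs and BECs (adjusted p = 0.59).

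Among naive fractions, Epas1, Ankrd37 and Ddit4 were highest in BECs. Epas1 had 10.51, 10.57 and 10.83 in naive BECs, 7.49, 9.56 and 8.49 in naive DNs, 8.47, 7.98 and 8.27 in naive FRCs and 7.53, 8.04 and 8.11 in naive LECs. BECs were above every other fraction, with an FRC minus BEC difference of -2.40 ± 0.38 (SE, adjusted p = 3.4e-05), and the differences among the other 3 did not pass the threshold. Ankrd37 had 10.63, 9.08 and 10.94 in naive BECs, 7.26, 8.06 and 8.16 in naive LECs, 7.57, 8.33 and 7.23 in naive DNs and 5.94, 6.12 and 6.36 in naive FRCs. Its order was BEC, then LEC and DN, which did not differ beyond the threshold (adjusted p = 0.89), then FRC. Ddit4 averaged 12.87 in naive BECs and 11.23 to 11.56 in the others, among which no pair was called. Ndrg1 averaged 13.35 and 13.28 in naive BECs and LECs and 11.22 and 11.11 in naive FRCs and DNs, with no call within either pair. Adm averaged 10.30, 10.02 and 9.78 in naive FRCs, LECs and BECs and 7.91 in DNs, below each of the others. Egln3 averaged 10.55 in naive DNs and 8.32 to 9.18 elsewhere. Pgam1, Ldha, Slc16a3 and Vhl were called in none of the 6 pairs.

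**Figure D4:**
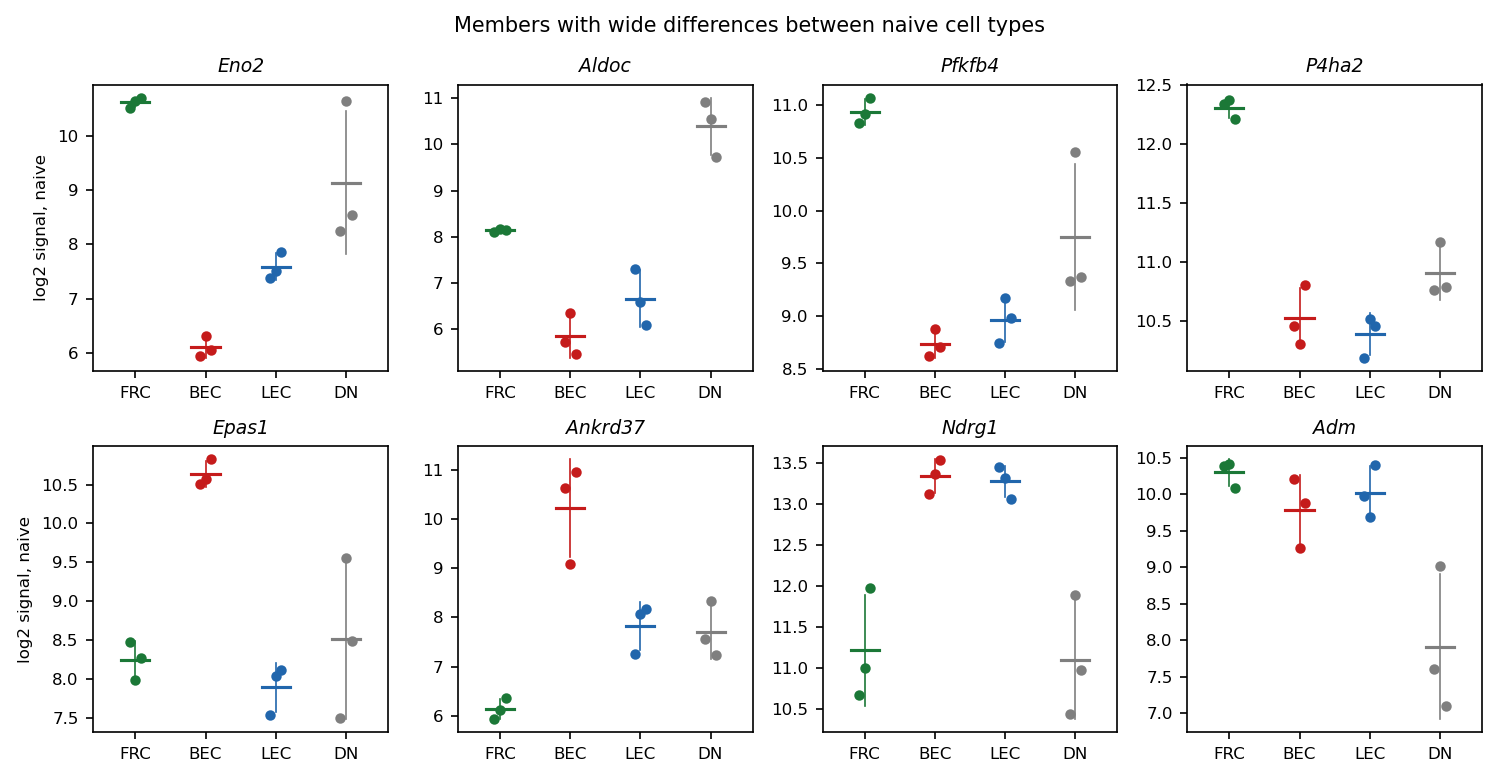
Log2 signal of 8 members in naive FRCs, BECs, LECs and DNs. Points are replicates, bars the mean and SD (n = 3), and each panel has its own vertical scale. Eno2, Pfkfb4 and P4ha2 are highest in FRCs (10.62, 10.94 and 12.31 on average), Aldoc in DNs (10.40) and Epas1 and Ankrd37 in BECs (10.64 and 10.22).

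The promoters of the 8 members called higher on average are shown, with the motif ACGTG, called the core here, marked. Other forms of the HIF motif were not searched, so a window with no core may hold another form. RefSeq promoter windows (GRCm38.p6, 250 bases before to 50 after each start) were held for 31 of the 34 members, and none for Epas1, Bnip3l and Ndrg1. ACGTG on either strand (CACGT on the other) was in the windows of 21 of these 31 genes (67.7%), against 27.7% of the tested genes with a window and 21.8% of all genes in the table. In the 150 bases before the start it was in 15 (48.4%), against 16.4% and 12.6%. The E-box CACGTG, which Myc and other factors also bind and which holds the core on both strands, was in 6 of the members' 43 windows (14.0%), against 9.36% and 7.15%. Of the 8 members higher on average, Pgk1, Ldha, Pgam1, Gapdh, Ankrd37 and Aldoa held the core and Pfkl and Tpi1 did not. Of the 3 lower members with windows, Egln1 and Pfkm held it and Pfkfb4 did not. A match is a description of these letters and not a binding site. For Aldoa and Ldha, which have several windows in the table, a window with the core is shown, and each has another without it. Each sequence is written 5′ to 3′ on the gene's strand with the core in capitals.
Pgk1, chrX:106186850-106187149, plus strand: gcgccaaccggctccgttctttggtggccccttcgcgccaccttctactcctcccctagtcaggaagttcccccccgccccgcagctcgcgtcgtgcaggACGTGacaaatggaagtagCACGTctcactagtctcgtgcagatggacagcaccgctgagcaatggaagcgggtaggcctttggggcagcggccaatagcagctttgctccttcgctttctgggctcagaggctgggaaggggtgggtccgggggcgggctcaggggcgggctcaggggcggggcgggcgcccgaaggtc
Ldha, chr7:46845554-46845853, plus strand: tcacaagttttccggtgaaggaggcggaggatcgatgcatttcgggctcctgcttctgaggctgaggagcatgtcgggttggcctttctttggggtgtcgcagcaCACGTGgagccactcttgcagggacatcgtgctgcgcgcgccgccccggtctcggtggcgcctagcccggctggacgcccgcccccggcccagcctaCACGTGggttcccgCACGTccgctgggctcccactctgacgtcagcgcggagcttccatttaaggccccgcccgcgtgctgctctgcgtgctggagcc
Pgam1, chr19:41911621-41911920, plus strand: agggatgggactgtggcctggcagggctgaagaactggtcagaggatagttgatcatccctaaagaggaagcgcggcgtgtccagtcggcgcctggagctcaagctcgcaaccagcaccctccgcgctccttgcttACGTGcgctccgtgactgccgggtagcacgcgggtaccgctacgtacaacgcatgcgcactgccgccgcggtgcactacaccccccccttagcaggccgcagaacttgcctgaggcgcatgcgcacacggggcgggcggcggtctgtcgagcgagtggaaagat
Gapdh, chr6:125165724-125166023, minus strand: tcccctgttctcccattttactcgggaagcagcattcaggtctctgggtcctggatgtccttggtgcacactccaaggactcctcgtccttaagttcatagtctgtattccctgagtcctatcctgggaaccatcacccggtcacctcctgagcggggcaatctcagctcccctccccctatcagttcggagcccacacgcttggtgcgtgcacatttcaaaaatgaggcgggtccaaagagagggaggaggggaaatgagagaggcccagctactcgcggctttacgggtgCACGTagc
Ankrd37, chr8:45999801-46000100, minus strand: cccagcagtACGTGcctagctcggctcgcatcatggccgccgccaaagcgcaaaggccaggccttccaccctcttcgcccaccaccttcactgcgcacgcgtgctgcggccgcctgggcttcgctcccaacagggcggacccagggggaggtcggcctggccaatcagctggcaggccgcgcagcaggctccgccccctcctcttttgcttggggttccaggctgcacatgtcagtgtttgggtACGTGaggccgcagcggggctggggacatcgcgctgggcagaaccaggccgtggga
Aldoa, chr7:126799129-126799428, minus strand: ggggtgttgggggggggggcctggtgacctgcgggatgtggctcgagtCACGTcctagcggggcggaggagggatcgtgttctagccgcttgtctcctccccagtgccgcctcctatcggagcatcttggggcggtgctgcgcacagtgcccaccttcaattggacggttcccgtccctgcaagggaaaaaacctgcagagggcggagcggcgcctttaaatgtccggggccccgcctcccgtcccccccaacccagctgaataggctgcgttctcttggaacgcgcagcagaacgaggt
Tpi1, chr6:124814109-124814408, minus strand, with no core: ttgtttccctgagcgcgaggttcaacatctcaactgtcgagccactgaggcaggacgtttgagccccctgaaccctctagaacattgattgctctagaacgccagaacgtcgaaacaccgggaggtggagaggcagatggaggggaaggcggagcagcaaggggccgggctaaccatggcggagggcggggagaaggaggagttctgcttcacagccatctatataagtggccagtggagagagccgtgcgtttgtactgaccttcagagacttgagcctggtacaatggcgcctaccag
Pfkl, chr10:78009758-78010057, minus strand, with no core: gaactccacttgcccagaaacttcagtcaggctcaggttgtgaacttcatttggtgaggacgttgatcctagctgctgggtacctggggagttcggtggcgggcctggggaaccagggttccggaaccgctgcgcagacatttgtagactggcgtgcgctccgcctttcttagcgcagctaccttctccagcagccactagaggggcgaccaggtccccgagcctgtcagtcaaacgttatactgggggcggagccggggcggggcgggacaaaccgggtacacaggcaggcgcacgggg

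Counting from 0 at the start, the 2 cores of the Pgk1 window had their centres at -148 and -129, in opposite orientation. The Ldha window had 3, of which 2 were E-boxes. The core of Pgam1 lay at -112, that of Gapdh at 44, past the start, those of Ankrd37 at -239 and -4, and that of Aldoa at -200. Average rises of the genes with a core were 0.82 for Pgk1, 0.48 for Ldha, 0.61 for Pgam1, 0.58 for Gapdh, 1.02 for Ankrd37 and 0.32 for Aldoa, the lowest of the 8. Those without it rose by 0.43 (Tpi1) and 0.46 (Pfkl), and Pfkm and Egln1, which hold it, fell by 0.28 and 0.42. The core was also in windows of Hk1, Aldoc, Slc2a1, Slc16a3, Pfkfb3, Egln3, Hif1a, Car9, Ddit4 and P4ha2, which were not called on average. Adm, Eno2, Pdk1, Pfkp and Vhl were not called and did not hold it. A link between the core and the change was not tested.

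Further genes of these pathways, outside the 34, were read from wider lists. Of 30 other glycolysis genes tested, 2 were higher and 2 lower in FRCs, 1 higher in BECs, none in LECs (4 at unadjusted p below 0.05) and 3 lower in DNs. Pkm, the pyruvate kinase that follows enolase, averaged 13.24 in tumor FRCs and 12.29 in naive FRCs (0.95 ± 0.21 SE, adjusted p = 0.0068), and 14.02 in tumor BECs and 13.10 in naive BECs (0.92 ± 0.21, adjusted p = 0.014). The glucose transporter gene Slc2a6 averaged 10.53 in tumor FRCs and 7.59 in naive FRCs (2.94 ± 0.76, adjusted p = 0.018). Pfkfb2, of the Pfkfb4 family, was lower in tumor FRCs (-0.95 ± 0.17, adjusted p = 0.0019) and DNs (-0.70 ± 0.17, adjusted p = 0.019), and Pdk4, a kinase of the pyruvate dehydrogenase complex, in DNs (-1.28 ± 0.33, adjusted p = 0.025). On average over cell types 3 of the 30 were higher and 4 lower (12.5% and 10.8% of all genes), with a median of -0.11, and the median was -0.09, 0.07, 0.02 and -0.22 in FRCs, BECs, LECs and DNs.

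Of 36 other hypoxia genes tested, none was higher in any cell type or on average, where 13 had an unadjusted p below 0.05. Plod1, a collagen lysyl hydroxylase (-0.98 ± 0.25, adjusted p = 0.016), and Pfkfb2 were lower in FRCs, and 8 were lower on average, with P4ha1, a collagen prolyl hydroxylase subunit, at -0.62 ± 0.17 (adjusted p = 0.011) and the HIF antagonist Cited2 at -0.56 ± 0.11 (adjusted p = 0.0016). Their median was -0.09, -0.18, -0.01 and -0.27 in FRCs, BECs, LECs and DNs. In the pentose phosphate pathway, Tkt (transketolase) was higher in BECs (0.76 ± 0.21, adjusted p = 0.044) and Rpe lower in FRCs (-0.83 ± 0.22, adjusted p = 0.022), of 6 genes tested. Immediate early genes, which cell dissociation can induce, were lower on average in 12 of 17 (median -0.54), with Fosb at -1.14 ± 0.15 (adjusted p = 2.3e-05). Of 9 housekeeping genes, a list that includes Pgk1, 4 were higher on average (median 0.27), among them Rplp0 at 0.51 ± 0.13 (adjusted p = 0.0065). The part of these shifts in the members' changes was not tested.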

How the data were processed

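Illumina mouse bead arrays were read on 48 strips, 2 for each of 24 replicates. The deposited value table holds log2 signals that the authors made for 45281 probes. Its normalization is not given in the sources used here, and strip medians ran from 5.38 to 5.64. The deposited bead files hold the intensity of every bead, and bead codes were linked to 45033 probes by their profile over strips, for use as alternatives only. No per-sample column was left unmapped. Strips were quantile normalized and averaged per replicate. A probe was kept where a group mean exceeded the background mode plus 3 robust SDs (5.58). Gene symbols came from the platform annotation (34885 probes with 1 symbol, 18 with several and 10378 with none), and the brightest kept probe stood for its gene. A model of 8 group means was fitted to 13288 genes with limma 3.58.1 (R 4.3.3), and p-values were adjusted over all genes by Benjamini-Hochberg (threshold 0.05). With 3 replicates against 3, an exact permutation test cannot go below 0.1. The script was tested on simulated data. Precision is limited by 3 pools a group.

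Members named with each replicate are those called in a tumor comparison, the average or a difference between cell types, and Hif1a, Epas1, Slc2a1 and Ldha. Other genes came from wider lists, and Pfkp, Egln3, Ndrg1, Adm, Hk1 and Car9 were given values after these were seen. Members and lists were chosen with earlier results of these data known. Same-numbered tumor and naive replicates of LECs deviated together (correlations 0.20, 0.23 and 0.15). No LEC member was called with or without blocking on the number. Over all genes the LEC count fell from 120 to 84 with the block. The same correlations were 0.25, 0.03 and 0.09 in FRCs, 0.04, -0.17 and -0.22 in BECs and -0.04, -0.19 and -0.02 in DNs. Alternatives covered scaling, strips, probe filter, probe choice, bead means, array weights, trended variance, the replicate block, left-out replicates, and the methods' t-test. Promoters were read from RefSeq (GRCm38.p6). Python 3.11.15, numpy 2.4.6 and matplotlib 3.10.9 were used.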

Additional observations from a re-analysis of the deposited data

How the results depend on the processing

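With 3 pools a group, counts of members called within a cell type moved with the processing, and the causes were not tested. The FRC count of 5 became 2 with the second strip alone, 8 with bead means, 19 with array weights, 3 with the replicate block (Gapdh, Pgk1 and Pgam1 were called), 9 with cell types compared alone, and 0 after adjustment and 13 without it by the methods' t-test. The BEC count of 2 became 0 with the second strip alone, with the replicate block, with cell types compared alone and with the methods' t-test after adjustment (7 without), 1 with the mean of all kept probes and 11 with array weights. The LEC count of 0 became 1 with array weights and 6 with the methods' t-test without adjustment. The DN count of 0 became 1 with the second strip alone, the stricter filter, trend and robust variance (Pfkp in each) and bead means with or without normexp (Egln1), 4 with array weights and 2 with the methods' t-test without adjustment. The estimation of array weights stopped before its convergence tolerance was reached. Leaving out 1 replicate gave 2 to 7 members in FRCs, 0 to 4 in BECs and 0 to 3 in DNs.

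The average count of 12 was 9 to 14 with other processing (9 with the replicate block, where Aldoa, Pfkm and Egln1 were lost at adjusted p = 0.0509, 0.10 and 0.095), 10 to 12 when 1 replicate was left out, 9 without DNs and 6 without FRCs, both chosen after seeing the data. Differences in change between cell types, 0 in each comparison, became 8 for FRCs against BECs, 1 for LECs against BECs and 6 for FRCs against DNs with array weights, and 0 to 1 for FRCs against DNs when 1 replicate was left out. Between naive fractions, adjusted t-tests gave 3 for FRCs and DNs, 4 for LECs and BECs (11 unadjusted), 3 for LECs and DNs and 8 for BECs and DNs, and array weights gave 13 for LECs and BECs. Leaving out 1 naive replicate gave 6 to 9 for FRCs and LECs and 8 to 15 for FRCs and DNs.

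No tumor difference of a named member that passed the test changed direction under any alternative. Uncalled differences that did were Tpi1 in DNs (log2 difference 0.26 with the first strip alone, 0.58 with the mean of all kept probes, 0.10 with bead means with or without normexp, 0.18 with array weights) and Pfkl in BECs (-0.0024 with the mean of all kept probes). When 1 replicate was left out, the uncalled log2 difference, tumor over naive, crossed 0 in DNs for Pfkl (-0.11 to 0.48), Aldoa (-0.07 to 0.23), Tpi1 (-0.32 to 0.25), Hif1a (-0.95 to 0.05), Epas1 (-0.91 to 0.13) and Slc2a1 (-0.52 to 0.04), in BECs for Pfkm (-0.22 to 0.01) and Hif1a (-0.43 to 0.03), and in LECs for Ankrd37 (-0.23 to 1.2) and Slc2a1 (-0.45 to 0.07).

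Over all genes, the counts called were 1381 in FRCs, 667 in BECs, 120 in LECs, 967 in DNs and 3096 on average. Array weights gave 5209, 3952, 530, 2222 and 5658. The average without DNs gave 2101 and that without FRCs 2033. Comparing cell types alone gave 2451 in FRCs, 129 in BECs and 0 in DNs. The adjusted t-test gave 652 in FRCs and 0 in BECs, LECs and DNs, and the unadjusted one 3975, 2205 and 1597 in FRCs, BECs and LECs. Leaving out 1 replicate gave 482 to 1421 in FRCs, 183 to 1366 in BECs, 11 to 187 in LECs and 312 to 2142 in DNs.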
